A study of Mus musculus with 6 samples.

Results

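This account covers the regions that 4 CUT&Tag tables assigned to 10 cytokine and chemokine genes with a known place in fibrosis: Il6, Il11, Lif, Il11ra1, Osmr, Il6st, Il33, Ccl2, Cxcl1 and Cxcl12. The genes were proposed with earlier results of these data known, and their regions were found by gene symbol. The symbols matched 60 of 456310 listed regions, in tables that name 26742 genes. Primary mouse cardiac fibroblasts from the heart were profiled by CUT&Tag, in which an antibody directs a transposase to chromatin and reads collect where the antibody's target sits. The 6 libraries fell into 2 sets, marked T and S in the labels, and each set had 1 library of NC, 1 of TGF-b and 1 of TGF-b with an siRNA. The labels write the siRNA as SiTAZ in the T set and SiSRF in the S set, whereas the study describes these profiles of TAZ and SRF with an siRNA against Piezo2. The study also names a scrambled control siRNA, given before TGF-b, and the sample titles do not show which libraries received it. No label gives the antibody, so taking the T libraries for TAZ and the S libraries for SRF is inferred and unchecked, and a knockdown cannot be checked in libraries that hold no transcripts. What NC stands for, the age and sex of the mice and the number of animals behind a culture were not given in the sources used here. The series describes loss of Tet3 through a Cre virus, but no library label carries that deletion.

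With 1 library per group there was no replicate, and no difference below has a replicate check or a test. Each region carries a normalized read density, which is reads plus 1 per kb in a 2 kb window, rescaled by the authors between the libraries of a table. The whole reads behind each density were recovered, and all 60 member values came out whole. A log2 ratio is that of the later density over the earlier one. Its 95% interval comes from the Wilson interval of the reads and covers counting error only. Depth was low, since the libraries of the T set had 0 to 52 reads per member region. Coordinates are those of the tables (GRCm39 in the study's methods). The labelled cell type could not be checked from binding data: when TGF-b was compared with NC in the T libraries, a region lay within 3 kb of a transcription start site (TSS) for 4 of 6 fibroblast, 3 of 4 cardiomyocyte, 3 of 3 endothelial and 1 of 3 leukocyte marker genes.

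Cytokines of the IL-6 family, which include IL-6, IL-11 and LIF, bind a receptor chain of their own and then gp130, the shared signalling chain encoded by Il6st. The oncostatin M receptor, encoded by Osmr, also pairs with gp130. The paired receptors activate JAK kinases and STAT3, and SOCS proteins feed back on them. IL-11 is produced by fibroblasts exposed to TGF-b, and IL-33 is an alarmin released from damaged cells. Chemokines such as CCL2 and CXCL1 draw monocytes and neutrophils into injured tissue, whereas CXCL12 retains and recruits cells that carry CXCR4. TAZ reaches DNA through TEAD factors, and SRF binds the CArG box.

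4 promoters are shown because a T set region lay on each: Il6st and Il11ra1 gave wide courses over the treatments described below, and Il6 and Cxcl1 gave narrower ones. The sequences are the 250 bases upstream of the RefSeq start in GRCm38.p6, all on the plus strand, 5′ to 3′, and capitals mark matches to a searched motif. Both strands were searched for the TEAD motif GGAATG, the SRF CArG box, the AP-1 motif TGANTCA, the SMAD motif GTCTAGAC and the NF-kB kappaB site.
Il6 (chr5:30012864-30013113): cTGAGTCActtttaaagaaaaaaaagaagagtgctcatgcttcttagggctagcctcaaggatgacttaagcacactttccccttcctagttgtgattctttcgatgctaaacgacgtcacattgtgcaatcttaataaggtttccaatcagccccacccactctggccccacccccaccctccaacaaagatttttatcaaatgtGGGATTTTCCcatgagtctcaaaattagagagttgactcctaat
Cxcl1 (chr5:90890995-90891244): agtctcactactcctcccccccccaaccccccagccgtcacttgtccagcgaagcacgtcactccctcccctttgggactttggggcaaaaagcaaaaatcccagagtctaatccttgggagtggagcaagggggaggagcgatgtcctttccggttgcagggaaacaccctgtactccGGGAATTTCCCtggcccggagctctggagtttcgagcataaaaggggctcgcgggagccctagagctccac
Il6st (chr13:112463820-112464069): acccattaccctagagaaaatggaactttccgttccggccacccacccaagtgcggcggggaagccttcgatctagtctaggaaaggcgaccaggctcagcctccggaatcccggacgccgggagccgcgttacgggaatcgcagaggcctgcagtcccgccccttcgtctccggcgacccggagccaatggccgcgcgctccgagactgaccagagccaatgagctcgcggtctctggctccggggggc
Il11ra1 (chr4:41760193-41760442): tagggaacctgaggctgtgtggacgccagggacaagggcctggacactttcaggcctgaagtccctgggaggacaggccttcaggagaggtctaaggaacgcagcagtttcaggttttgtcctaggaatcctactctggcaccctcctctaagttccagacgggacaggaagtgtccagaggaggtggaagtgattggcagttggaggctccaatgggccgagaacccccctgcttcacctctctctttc

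In Il6 the capitals mark an AP-1 match at -249 to -243 and an NF-kB match at -44 to -35 from the start. In Cxcl1 they mark 2 overlapping NF-kB matches at -71 to -62 and -70 to -61. No searched motif was found in the windows of Il6st and Il11ra1. Of 32851 promoters of the same length, 12.6% held the TEAD motif, 1.47% the CArG box, 6.75% AP-1, 0.167% SMAD and 7.25% NF-kB. The summit of the T set region lay at -149 bp from the start of Il6, -12 bp from that of Il6st and -43 bp from that of Il11ra1, while the region nearest to the start of Cxcl1 had its summit 16 bp after it. The RefSeq promoter sequences used here covered 9 of the 10 genes and lacked Ccl2, which does not mean that RefSeq has no Ccl2 entry. Among the promoters not printed, a TEAD match stood in both entries of Il33 and in the second entry of Il11ra1, AP-1 stood in Lif and in 1 of the 2 entries of Il11, and NF-kB stood in Lif. None of the 5 motifs was found in the windows of Osmr, Cxcl12 or the other entry of Il11. A match describes letters in this window and does not show a site in use.

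The first comparison asked where TGF-b altered the T set signal. All 10 genes had a region, 31 in total. Promoter regions were mostly near or above their NC level, with Il6st 1.82-fold higher, whereas most regions inside gene bodies were lower in TGF-b. Gene body regions that were higher stood in the first introns of Osmr, Il11 and Il6st, at the 3′ UTR of Il6 and at the 5′ UTR of Cxcl1. At least 2-fold higher in TGF-b were 5 of 31 regions (16.1%), against 17.3% of all 170890 regions of the table. At least 2-fold lower were 11 of 31 (35.5%), against 42.1% of all regions. With a counting interval that also excluded 0, the counts were 4 higher and 9 lower, against 14.1% and 30.2% of all regions. The median log2 ratio was -0.70 over the members and -0.65 over all regions, and the members' median was -0.40 when reads of 3 or fewer were set to 3 and 0.07 among members above the median density of the table, so its sign is not stable. Relative to the median of all regions, 10 members were at least 2-fold higher and 9 at least 2-fold lower, against 26.7% and 27.2% of all regions on that scale.

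**Figure D1:**
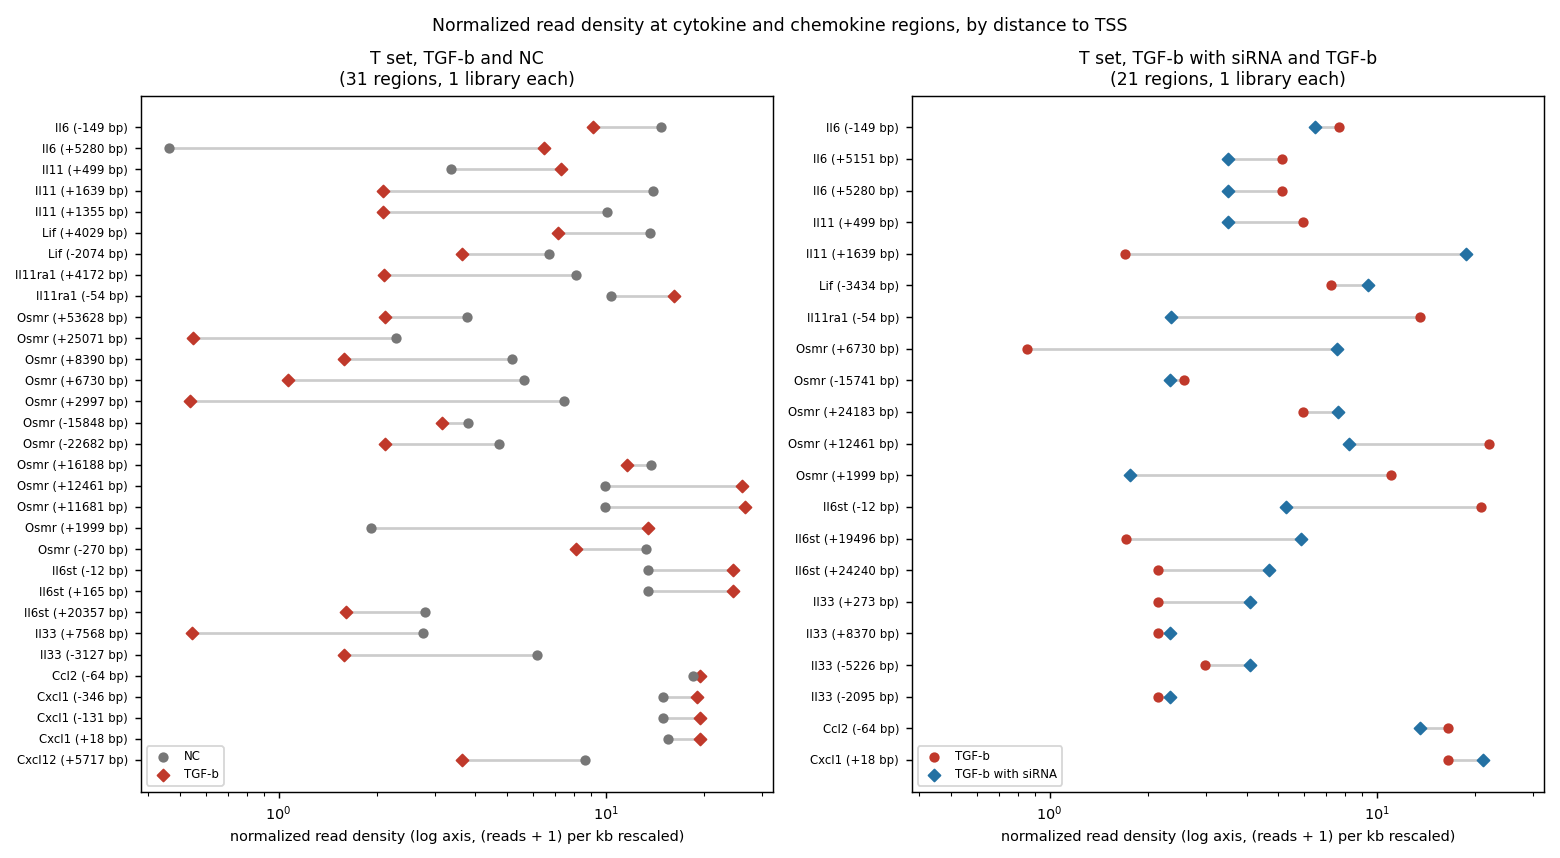
Normalized read density on a log axis for each T set region, labelled with its gene and its distance to the TSS in bp; the left panel joins NC (circles) to TGF-b (diamonds) in 31 regions and the right panel joins TGF-b (circles) to TGF-b with siRNA (diamonds) in 21 regions, with 1 library per point. Ccl2 and Cxcl1 pairs lie close together, whereas Osmr holds pairs that move far in either direction.

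The medians of members near to and far from a TSS differed in this comparison, although their ranges overlapped. The 10 regions within 1 kb of a TSS had a median log2 ratio of 0.37, with 8 above 0, 1 at least 2-fold higher and 0 at least 2-fold lower, against 21.4% and 20.9% of all regions that near. The 21 regions beyond 1 kb had a median of -1.16, with 17 below 0, 4 at least 2-fold higher and 11 at least 2-fold lower, against 16.5% and 43.9% of all regions assigned that far. Relative to the median of all regions, 6 of the 10 near members were at least 2-fold higher and 0 lower, against 40.4% and 11.6% of all near regions, and 4 of the 21 far ones were higher and 9 lower, against 25.0% and 28.3%. All regions of the table had the same order, with medians of 0.09 within 1 kb and -0.77 beyond it. The near regions include 3 of Cxcl1 and 2 of Il6st whose windows overlap, so they are not separate measurements. Members lay within 1 kb of a TSS in 32.3% of cases, against 17.1% of regions assigned to any gene. As in the table as a whole, most had been called as a peak in NC alone, 22 of 31 (71.0%) against 68.9% of all regions, with 6 (19.4%) against 25.7% in TGF-b alone and 3 in both. The direction followed the library of the call. Members called in NC alone had a median log2 ratio of -1.05 and held all 11 regions at least 2-fold lower, those called in TGF-b alone had a median of 1.25 and held 4 of the 5 at least 2-fold higher, and those called in both had a median of 0.07. The medians over all regions of these classes were -1.27, 1.41 and -0.00, so gains and losses cannot be told apart from which library gave the peak.

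Among the ligands, Il6 encodes the founding cytokine of the family and had 2 regions. Its promoter region (chr5:30217891-30218035, -149 bp from the TSS) had 29 reads and a density of 14.8 in NC, and 17 reads and 9.13 in TGF-b. The log2 ratio of -0.70 had an interval of -1.58 to 0.12, which includes 0. At the 3′ UTR (chr5:30223536-30223662, 5280 bp after the TSS) NC had 0 reads and TGF-b had 11. This was 3.33-fold higher when NC is set to the floor of 3 reads, with a log2 interval that starts at 1.73. The promoter and the 3′ end of Il6 thus lay on opposite sides of their NC values, the first within counting error.

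Il11, the gene of a cytokine made by activated fibroblasts, had 3 intron 1 regions that also went in opposite directions. The region nearest to a TSS (chr7:4780562-4780721, 499 bp after it) had 6 reads in NC and 13 in TGF-b, with densities of 3.36 and 7.29. Its log2 ratio was 1.12 with an interval of -0.11 to 2.58. Il11 is on the minus strand, so the next region (chr7:4784150-4784285) lies upstream of that TSS, 1639 bp after the start of another transcript. In it NC had 28 reads and TGF-b had 3, with densities of 14.0 and 2.08. There the log2 ratio was -2.75 (-4.74 to -1.48), the strongest loss among the ligand regions. A neighbour at chr7:4784460-4784542 shared part of that window and gave 20 and 3 reads with a log2 ratio of -2.27 (-4.27 to -0.95). The Il11 locus therefore held a called NC signal that was nearly gone in TGF-b, a few kb from a region that was higher in TGF-b only within counting error.

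Lif, the gene of leukemia inhibitory factor, had 2 regions in intron 1, both lower in TGF-b but within 2-fold. The denser one (chr11:4211552-4211621) had 27 reads in NC and 13 in TGF-b, with densities of 13.7 and 7.14 and a log2 ratio of -0.94 (-1.94 to -0.06). The other (chr11:4214987-4215056, -2074 bp from a TSS) had 13 and 6 reads, densities of 6.72 and 3.65 and a log2 ratio of -0.88 (-2.34 to 0.35). Only the first interval stayed below 0.

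Among the receptors, Il6st encodes gp130. Its promoter region (chr13:112600480-112600704, -12 bp from the TSS) was called in both libraries and had 26 reads in NC and 48 in TGF-b. Densities were 13.5 and 24.5, and the log2 ratio was 0.86 (0.20 to 1.57). A second Il6st region 165 bp after a TSS had the same numbers of reads in an overlapping window and is not a separate measurement. A sparse region in intron 11 (chr13:112631896-112631979) had 5 and 2 reads and a log2 ratio of -0.80 (-3.29 to 1.03). The gp130 promoter thus had the largest ratio of the regions listed as promoters, below 2-fold as deposited and past it relative to all regions, at a log2 ratio of 1.51.

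Il11ra1 encodes the IL-11 binding receptor chain. Its promoter region (chr4:41760310-41760491, -54 bp from the TSS) had 20 reads in NC and 31 in TGF-b, with densities of 10.4 and 16.2. The log2 ratio was 0.64 (-0.14 to 1.46), an interval that includes 0. A region in intron 2 (chr4:41704125-41704197) went the other way, with 16 and 3 reads, densities of 8.11 and 2.10 and a log2 ratio of -1.95 (-3.96 to -0.60). It lies upstream of this promoter, 4172 bp after the start of another transcript.

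Osmr, the oncostatin M receptor gene, had 12 regions, the most of any member, with log2 ratios on both sides of 0. In intron 1, the region at chr15:6901665-6901814, 1999 bp after the TSS, had 3 reads in NC and 25 in TGF-b. Its densities were 1.92 and 13.5, a ratio of 7.04-fold and a log2 ratio of 2.82 (1.54 to 4.81). Another intron 1 region (chr15:6891147-6891408, 12461 bp after the TSS) had 19 and 51 reads, densities of 9.96 and 26.1 and a log2 ratio of 1.39 (0.68 to 2.19). A region at chr15:6892004-6892110 shared most of that window, with 19 and 52 reads, densities of 9.96 and 26.6 and a log2 ratio of 1.42 (0.71 to 2.21). The first intron of Osmr therefore held 3 of the 4 member regions at least 2-fold higher with an interval above 0, the other being the 3′ UTR of Il6.

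The promoter of Osmr did not follow its first intron. The promoter region (chr15:6904005-6904089, -270 bp from the TSS) had 26 reads in NC and 15 in TGF-b, and its log2 ratio of -0.70 (-1.64 to 0.16) was within counting error. Toward the 3′ end, losses stood in 3 introns. In intron 14 (chr15:6851045-6851113) NC had 15 reads and TGF-b had 0, 3.64-fold lower against the floor, with a log2 interval that ends at -1.76. In intron 15 (chr15:6847285-6847408) there were 11 and 1 reads, with a log2 ratio of -2.40 (-5.87 to -0.69). In intron 17 (chr15:6845614-6845759), whose window overlaps the previous one, there were 10 and 2 reads and a log2 ratio of -1.71 (-4.17 to -0.13). At the Osmr 3′ UTR (chr15:6828970-6829041) there were 4 and 0 reads, with a counting interval of the log2 ratio that reaches 0.20 and so includes 0. The other 4 Osmr regions had log2 ratios of -1.16 to -0.25 with intervals that include 0. Of these, the region at chr15:6800404-6800492 was annotated to an intron of Rictor and only assigned to Osmr, 53628 bp from its TSS.

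Il33, the gene of the alarmin, had 2 regions in intron 1 and both were lower in TGF-b. The region at chr19:29920030-29920097 had 12 reads in NC and 2 in TGF-b, with a log2 ratio of -1.96 (-4.42 to -0.43). The region at chr19:29910047-29910154 had 5 and 0 reads, 1.32-fold lower against the floor, with a log2 interval that ends at -0.13. These counts are small, and no Il33 region in this table lay within 1 kb of a TSS.

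As deposited, the promoters of Ccl2 and Cxcl1 were near their NC values. At the Ccl2 promoter (chr11:81926257-81926409, -64 bp from the TSS), the gene of the main monocyte attractant, NC had 36 reads and TGF-b had 38. Densities were 18.5 and 19.5, and the log2 ratio was 0.07 (-0.58 to 0.73). At the start of Cxcl1, the gene of a neutrophil attractant, 3 regions shared windows and gave log2 ratios of 0.34 to 0.38. The nearest to the TSS (chr5:91039045-91039196, in the 5′ UTR) had 30 and 38 reads, densities of 15.5 and 19.5 and a log2 ratio of 0.34 (-0.34 to 1.03). The intervals allow a change of either sign at both genes and do not reach 2-fold lower. Relative to the median of all regions Ccl2 was at 0.72 and the Cxcl1 regions were at 0.99 to 1.04, so that 2 of the 3 Cxcl1 regions passed 2-fold higher. Cxcl12 had a single region, at its 3′ UTR (chr6:117151220-117151290, 5717 bp after the TSS), with 17 and 6 reads, densities of 8.67 and 3.63 and a log2 ratio of -1.26 (-2.69 to -0.10).

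**Figure D2:**
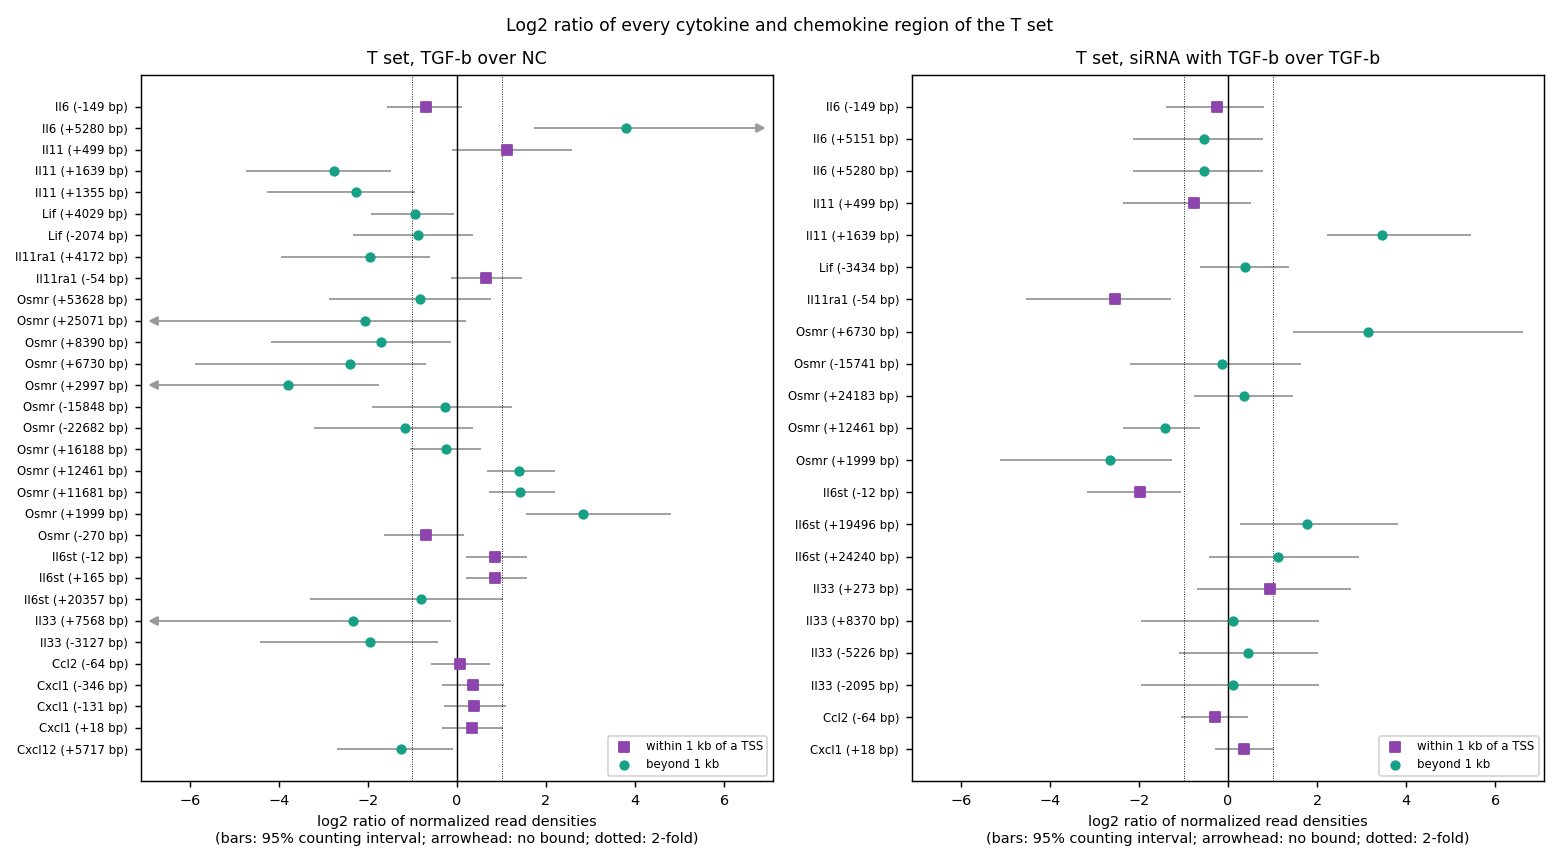
Log2 ratio of normalized read densities for every T set member region, with the 95% counting interval as a bar, an arrowhead where the interval has no bound because a library had 0 reads, and dotted lines at 2-fold; squares lie within 1 kb of a TSS and circles beyond it. On the left the squares sit between -0.70 and 1.12 while the circles spread from -3.80 to 3.80, both ends being regions with 0 reads in a library and no exact ratio; on the right the lowest square is Il11ra1 at -2.54 and the highest circle is Il11 at 3.46.

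The next comparison was of the siRNA library with the TGF-b library of the T set. It held 21 regions of 9 genes, without Cxcl12. The promoters of the receptor genes Il11ra1 and Il6st and the first intron of Osmr were lower with the siRNA. The Ccl2, Cxcl1 and Il6 promoters were within 2-fold as deposited. Relative to the median of all regions, Cxcl1 was at a log2 ratio of -0.61. Ccl2 and Il6, at -1.26 and -1.22, were past 2-fold lower on that scale, as were 48.4% of all regions within 1 kb of a TSS. As deposited, 4 of 21 regions (19.0%) were at least 2-fold higher, against 49.7% of all 180118 regions. At least 2-fold lower were also 4 of 21 (19.0%), against 16.2% of all regions. With an interval that excluded 0, 3 were higher and 4 lower, against 38.4% and 11.0% of all regions.

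The median log2 ratio was 0.12 over the members and 0.97 over all regions. Without the authors' rescaling the members' median was -0.32, with 3 regions at least 2-fold higher and 7 at least 2-fold lower, against 41.6% and 21.6% of all regions on that scale. Relative to the median of all regions it was -0.85, with 2 regions higher and 10 lower, against 29.2% and 28.9%. A smaller share of the members than of all regions had been called with the siRNA alone, 57.1% against 70.5%, and their median geometric mean density was 4.42 against 2.83. The part of these differences in the lower share of gains was not tested. Within 1 kb of a TSS the median was -0.29 over 7 members and 0.03 over all regions, and beyond 1 kb it was 0.24 over 14 members and 1.04 over all regions. As deposited, 0 of the 7 near members were at least 2-fold higher and 2 lower, against 25.1% and 22.2% of all near regions. Of the 14 far members, 4 were higher and 2 lower, against 51.1% and 15.6%. Relative to the median of all regions, 0 near members were higher and 5 lower, against 11.8% and 48.4%. On that scale 2 far members were higher and 5 lower, against 29.9% and 27.4%.

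At the Il11ra1 promoter TGF-b had 31 reads and TGF-b with siRNA had 3, with densities of 13.6 and 2.35. The log2 ratio was -2.54 (-4.53 to -1.29). At the Il6st promoter there were 48 and 8 reads, densities of 20.8 and 5.30 and a log2 ratio of -1.97 (-3.17 to -1.06). The promoters of the IL-11 binding chain and of gp130, printed above, were thus both lower with the siRNA by more than counting error. In Osmr intron 1, the region 1999 bp after the TSS had 25 and 2 reads, densities of 11.1 and 1.76 and a log2 ratio of -2.66 (-5.12 to -1.26). The region 12461 bp after the TSS had 51 and 13 reads, densities of 22.1 and 8.25 and a log2 ratio of -1.42 (-2.36 to -0.63). These are the 4 regions counted as lower.

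The 4 regions counted as higher lay inside gene bodies, beyond 1 kb of a TSS, where 51.1% of all regions were also at least 2-fold higher. In Il11 intron 1 (chr7:4784150-4784285) TGF-b had 3 reads and the siRNA library 31, with densities of 1.70 and 18.8. This was a ratio of 11.0-fold and a log2 ratio of 3.46 (2.21 to 5.45). In Osmr intron 15 (chr15:6847285-6847408) there were 1 and 12 reads, with a log2 ratio of 3.15 (1.45 to 6.62). Both regions had been low in TGF-b alone, with 28 and 11 reads in NC. In Il6st intron 9 (chr13:112631044-112631109) there were 3 and 9 reads and a log2 ratio of 1.77 (0.27 to 3.81), and in intron 14 (chr13:112635786-112635855) there were 4 and 7 reads and 1.13 (-0.42 to 2.94).

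As deposited, the ligand and chemokine promoters had ratios closer to 1, and on the scale relative to all regions each ratio is lower by the table's median of 0.97. The Il6 promoter had 17 reads in TGF-b and 10 with the siRNA, a log2 ratio of -0.25 (-1.40 to 0.80). Its 3′ UTR had 11 and 5 reads and -0.54 (-2.14 to 0.78), with the same numbers of reads in a neighbour whose window overlaps. The Il11 region 499 bp after the TSS had 13 and 5 reads and -0.76 (-2.35 to 0.51), or -1.74 relative to all regions. Ccl2 had 38 and 22 reads, densities of 16.5 and 13.6 and a log2 ratio of -0.29 (-1.06 to 0.44). Cxcl1 had 38 and 35 reads, densities of 16.5 and 21.2 and a log2 ratio of 0.36 (-0.30 to 1.02). All of these intervals include 0. A Lif intron region (chr11:4213610-4213712) had 16 and 15 reads and a log2 ratio of 0.38, and 4 Il33 regions with 3 to 6 reads per library had log2 ratios of 0.12 to 0.94. The intervals of these 5 regions, and of the other 2 Osmr regions at -0.14 and 0.36, also include 0.

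Following a region over the 3 treatments was possible where both tables of a set listed it, for 11 T set regions and 1 S set region. The TGF-b library enters both ratios of such a course, so the ratios are not independent of each other. A region is also listed only where a peak was called in a library of that table, and this selection bears on the shape. All 7 T set regions that were higher and then lower had been called in TGF-b, and both that were lower and then higher had been called in NC alone and then with the siRNA alone. The counts of shapes are therefore a description, and the shares over all regions carry the same selection. In the T set, 7 of 11 regions were higher in TGF-b than in NC and lower again with the siRNA, 2 were lower and then higher, 1 was lower at both steps and 1 was higher at both steps. Over all 58623 T set regions listed in both tables, 54.9% were higher and then lower and 14.1% lower and then higher. The order of the 2 shapes was thus that of the whole set.

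The receptor genes gave wide courses. Reads over NC, TGF-b and TGF-b with siRNA were 20, 31 and 3 at the Il11ra1 promoter and 26, 48 and 8 at the Il6st promoter. In Osmr intron 1 they were 3, 25 and 2 at the region 1999 bp after the TSS and 19, 51 and 13 at the region 12461 bp after it. These Osmr regions were the 2 that passed 2-fold up and then 2-fold down, a pattern of 27.3% of all regions listed in both tables. The opposite pattern past 2-fold, found in 4.35% of all such regions, also had 2 members. They were Il11 intron 1, with 28, 3 and 31 reads, and Osmr intron 15, with 11, 1 and 12 reads.

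Among the remaining courses, the Il6 promoter had 29, 17 and 10 reads and was the region that was lower at each step. The Il6 3′ UTR had 0, 11 and 5 reads and the Il11 region near its TSS had 6, 13 and 5. Ccl2 had 36, 38 and 22 reads and Cxcl1 had 30, 38 and 35. At both chemokine promoters every library held more than 20 reads. Reads are not scaled to library size, and the ratios given above carry the authors' rescaling.

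**Figure D3:**
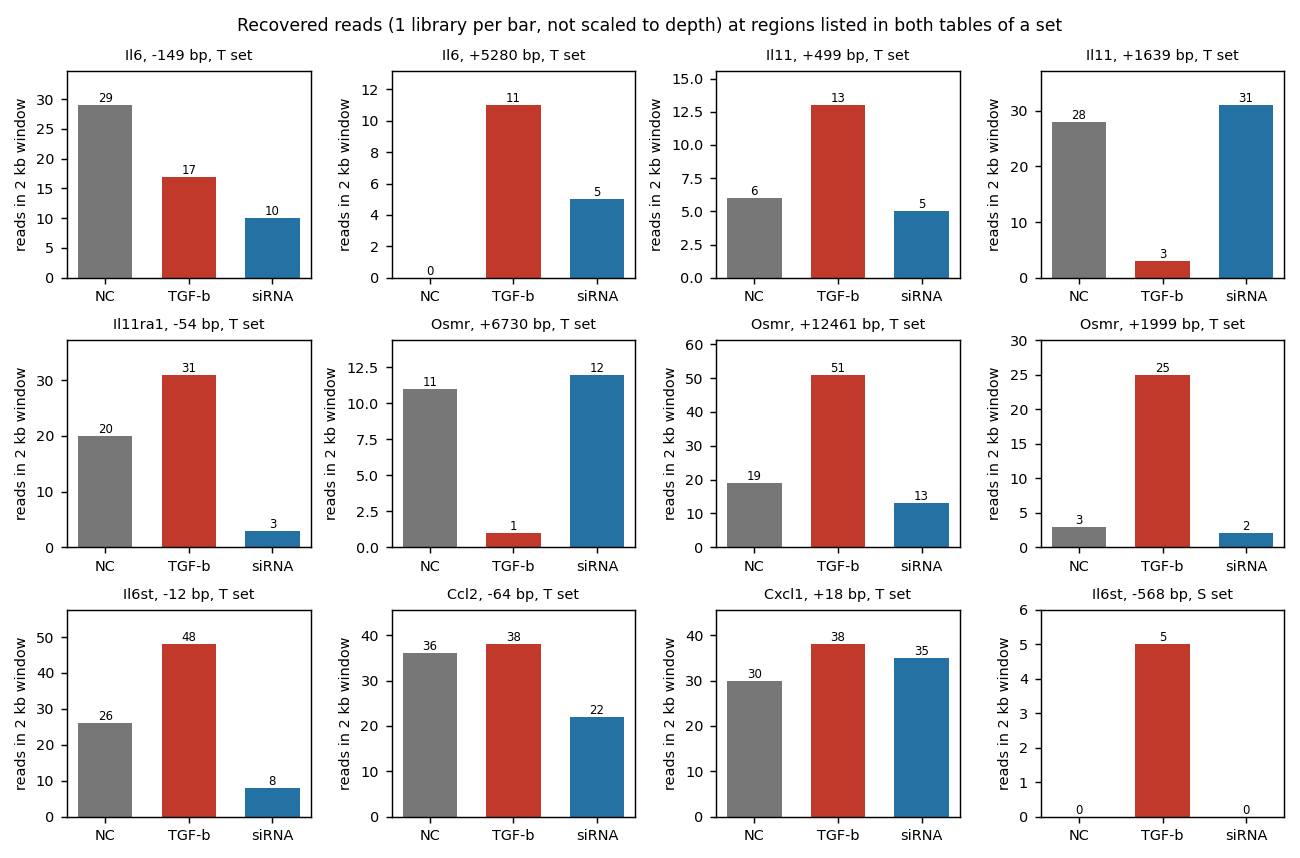
Recovered reads in the 2 kb window (vertical axis, each panel with its own scale from 0) in NC, TGF-b and TGF-b with siRNA, for the 12 regions listed in both tables of a set, titled by gene, distance to the TSS and set, with 1 library per bar and no scaling to library size. The Osmr intron 1, Il6st and Il11ra1 promoter panels peak in TGF-b, the Il11 region 1639 bp from a TSS dips to 3 reads, and Ccl2 and Cxcl1 stay above 20 reads throughout.

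In the S set few members were listed. For TGF-b over NC there were 3 regions, of Il11, Osmr and Il6st. At least 2-fold higher was 1 of 3 (33.3%), against 17.4% of all 52723 regions, and 0 of 3 were at least 2-fold lower, against 26.7%. The Il11 intron 1 region (chr7:4780698-4780787, 398 bp after the TSS) had 13 reads in NC and 16 in TGF-b, densities of 8.50 and 7.00 and a log2 ratio of -0.28 (-1.30 to 0.77). The Osmr intron 1 region (chr15:6894953-6895031) had 7 and 11 reads, densities of 4.89 and 4.91 and a log2 ratio of 0.01 (-1.25 to 1.39). The Il6st region (chr13:112610886-112611062) was listed as a promoter of another transcript, 10370 bp after the RefSeq start, and had 0 and 5 reads. With NC set to the floor of 3 reads its log2 ratio was -0.02, so no fold is given for the one region counted as higher.

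With the siRNA, the S set table held 5 regions of 4 genes. At least 2-fold higher were 2 of 5 (40.0%), against 15.1% of all 52579 regions, and 1 of 5 (20.0%) was at least 2-fold lower, against 27.8%. With libraries of 3 or fewer reads set to 3, only 1 was higher and 0 were lower, against 13.0% and 25.5% of all regions. The clearest was the 3′ UTR of Il33 (chr19:29937445-29937518), with 4 reads in TGF-b and 15 with the siRNA, densities of 2.41 and 8.31 and a log2 ratio of 1.79 (0.50 to 3.54). A second Il33 region in intron 4 (chr19:29931735-29931844) had 0 and 5 reads, 1.66-fold higher against the floor, with a log2 interval that starts at 0.57. The Il6st region with 0 reads in NC had 5 in TGF-b and 0 with the siRNA. The second step was 1.35-fold lower against the floor, with a log2 interval that ends at -0.19. Lif (chr11:4212071-4212147) had 6 and 9 reads and a log2 ratio of 0.63 (-0.73 to 2.13). The region assigned to Osmr at chr15:6819579-6819654 lay in an intron of Rictor and had 4 and 6 reads. No chemokine member and no Il6 or Il11ra1 region appeared in either S set table.

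T and S regions seldom overlapped, in the members as in the tables as a whole. In the comparison of TGF-b with NC, 1 region overlapped between the sets, in Il11 intron 1 by 24 bp, which is 3.23% of the T list and 33.3% of the S list, against 3.98% of all T regions and 12.7% of all S regions. In the siRNA comparison 0 of 21 T and 0 of 5 S regions overlapped, against 4.69% and 15.9% of all regions. At the Il11 overlap, NC and TGF-b had 6 and 13 reads in the T set and 13 and 16 in the S set.

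**Figure D4:**
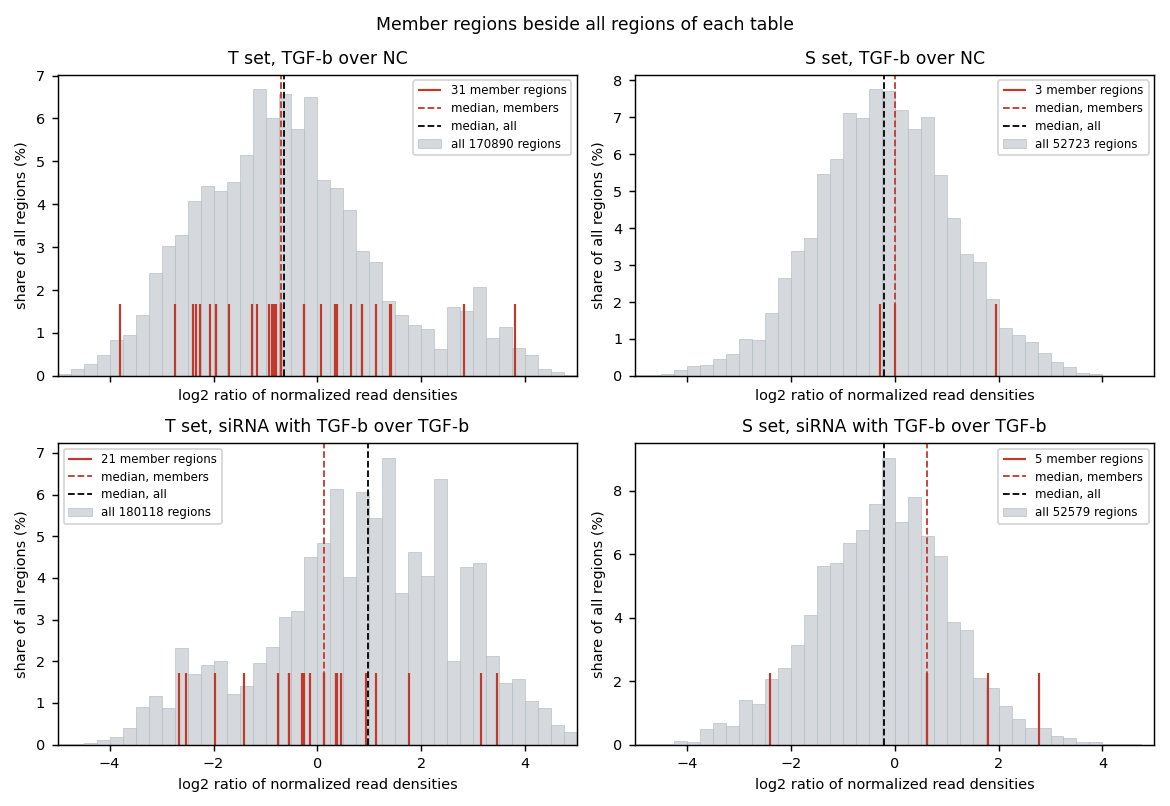
Share of all regions in percent (grey bars, 0.25 log2 wide) by log2 ratio in each of the 4 tables, with each member region as a red line whose height has no meaning, and dashed medians of members (red) and of all regions (black). The medians nearly coincide for TGF-b over NC in the T set (-0.70 and -0.65) and stand apart for siRNA with TGF-b over TGF-b in the T set (0.12 and 0.97).

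Other genes of these pathways, a list of 37 chosen by function, were read in the same way. For TGF-b over NC in the T set, 33 had a region and gave 17 of 113 regions at least 2-fold higher (15.0%) and 43 lower (38.1%), against 17.3% and 42.1% of all regions, with a median log2 ratio of -0.55. For the siRNA comparison, 29 had a region and gave 41 of 102 higher (40.2%) and 13 lower (12.7%), against 49.7% and 16.2%, with a median of 0.65. In the S set, 4 of 19 regions were higher (21.1%) and 3 lower (15.8%) in TGF-b, against 17.4% and 26.7% of all regions. With the siRNA, 6 of 25 were higher (24.0%) and 5 lower (20.0%), against 15.1% and 27.8%.

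Some signalling partners of gp130 had promoter regions that were higher in TGF-b and then lower with the siRNA, as 54.9% of all T set regions listed in both tables were. At Lifr, the LIF receptor gene, T set reads were 6 in NC and 17 in TGF-b (log2 ratio 1.47, 0.31 to 2.91), then 1 with the siRNA (-2.72, -6.20 to -1.08). At Jak2, a kinase bound to gp130, they were 20 and 45 (1.15, 0.43 to 1.94), then 14 (-1.14, -2.06 to -0.36). At Stat3, the transcription factor activated downstream, they were 29 and 81 (1.42, 0.85 to 2.06), then 42 (-0.45, an interval that includes 0). The feedback gene Socs3 had 50 and 72 (0.47), then 36 (-0.50), both with intervals that include 0. These 4 genes were picked from the list after their values were seen, and others went another way. Tyk2, also a kinase of the pathway, had 29 and 37 reads (0.35, -0.34 to 1.05), then 43 (0.69, 0.07 to 1.33). In the S set, Lifr had 6 reads in TGF-b and 15 with the siRNA (1.29, 0.10 to 2.74). Socs1, also a feedback gene, had 55 and 27 T set reads at its promoter (-1.01, -1.69 to -0.38), and Clcf1, a ligand of the family, had 40 and 22 (-0.82, -1.59 to -0.10).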

How the data were processed

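The 6 CUT&Tag libraries were deposited as 4 tables, each pairing 2 libraries over their merged peaks. According to the methods, reads were mapped to GRCm39 with Bowtie2 and peaks called with MACS2 (written Masc2). The submitters' processing notes instead list mm10 and BWA 0.7.12. Of 47510 transcripts matched to GRCm38, 1.86% had the start given in the tables, so coordinates are printed as deposited. The deposited values are a signal, (reads + 1) × 0.5 for a 2 kb window, and the authors then rescaled them by a line fitted on mean log2 density. That step removes a shift common to shared peaks. The spike-in of the methods was not used here. The authors' own log2 fold and unadjusted p-value columns were not used. Columns of other samples numbered 0.

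Undoing the line gave whole reads, within 0.1 read, in 99.98% to 99.99% of regions. Each log2 ratio carries a Wilson 95% counting interval, and a library with 0 reads was set to a floor of 3 reads for a fold. No test was possible with 1 library per group. A region was counted as higher or lower at 2-fold. Tables were normalized separately, so ratios were taken within a table. Named regions of each gene were the nearest to a TSS, the densest, and any past 2-fold whose interval excluded 0, and further regions were named after their values were seen. The members and lists were chosen with earlier results of these data known. Python 3.11.15, numpy 2.4.6, pandas 2.3.3 and scipy 1.17.1 were used, and the scripts were tested on simulated data.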

Additional observations from a re-analysis of the deposited data

Results flagged for a closer look

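The sign of TGF-b over NC differed between the sets in 2 results, and neither difference was tested. The median log2 ratio of the member regions was -0.70 over 31 regions in the T set and 0.01 over 3 regions in the S set, and the lists share 1 overlapping region. With reads of 3 or fewer set to 3 the medians were -0.40 and -0.02, of the same sign. At that overlap in Il11 intron 1, the log2 ratio was 1.12 in the T set (interval -0.11 to 2.58) and -0.28 in the S set (-1.30 to 0.77), with 1 library per group. Without the authors' line both were above 0, with 0.28 in the S set.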

How the results depend on the processing

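No paired analysis was possible because each group had 1 library and the labels give no replicate numbers. For the same reason no replicate could be left out. Centring on the median of all regions shifts every ratio of a table alike. It moved 3 of the 60 log2 ratios beyond their counting intervals, which says little of the others since low reads make the intervals wide. These 3 were of the siRNA comparison in the T set, namely Osmr 12461 bp after the TSS at -2.39, Ccl2 at -1.26 and Cxcl1 at -0.61. With reads of 3 or fewer set to 3, Il6st in the S set for TGF-b over NC reversed to -0.02. For TGF-b over NC in the T set, centring gave 10 of 31 regions at least 2-fold higher, against 26.7% of all regions on that scale. Leaving out Osmr gave 2 of 19 higher and 6 of 19 lower, against 17.3% and 42.1% of all regions. Keeping regions above the median density gave 4 of 21 lower and a median of 0.07. The share among all regions above that density is not given here. For the siRNA in the T set, centring gave a median of -0.85, with 2 of 21 higher and 10 of 21 lower, against 29.2% and 28.9% of all regions. Dropping the authors' line gave 7 of 21 lower, against 21.6%. Leaving out Osmr gave 2 of 16 lower, against 16.2% of all regions as deposited. In the S set, setting low reads to 3 gave 0 of 3 higher for TGF-b over NC, against 11.7% of all regions. For the siRNA it gave 1 of 5 higher and 0 of 5 lower, against 13.0% and 25.5%. Regions above the median density gave 0 of 2 higher for TGF-b over NC in the S set. None of the 5 S set siRNA regions was above it, so that alternative has no value. Asking for an overlap of 50% of the shorter region left 0 regions shared by T and S for TGF-b over NC. Counting 1 region per group of overlapping windows and leaving out Osmr were chosen after seeing the data. Depth limits many values: 14 of 31 T set regions for TGF-b over NC had 3 or fewer reads in a library.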
